A study of Mus musculus with 12 samples.

Results

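The 10 genes described here encode proteins that modify, fold and crosslink collagen, measured in mouse mesenchymal stem cells (MSCs). They were taken by gene symbol from a table of 55401 genes and comprise the prolyl 4-hydroxylase alpha subunits P4ha1, P4ha2 and P4ha3, the lysyl hydroxylases Plod1 and Plod2, the collagen chaperone Serpinh1 and the lysyl oxidases Lox, Loxl1, Loxl2 and Loxl3. All 10 of these 10 genes passed the filter on low values, which asked for 3 or more of the 12 libraries with an FPKM of 1 or more and left 12016 genes to test. FPKM is a fragment density scaled to gene length and library size.

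Collagen chains are modified while they are still in the endoplasmic reticulum. Prolyl 4-hydroxylases, made of a catalytic alpha subunit and the P4hb protein, hydroxylate prolines that hold the triple helix together, lysyl hydroxylases prepare lysines for crosslinking, and the chaperone HSP47, encoded by Serpinh1, binds folded procollagen. Outside the cell, lysyl oxidases oxidise lysines of collagen and elastin, which then form the crosslinks that stiffen scar tissue, and TGF-β1 is a widely used inducer of the myofibroblast state in which these genes are active.

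The study asked how supernatants of myeloid-derived suppressor cells (MDSCs) affect the response of MSCs to TGF-β1, and polyadenylated RNA was sequenced from 4 groups of 3 libraries. The cells were commercial bone marrow MSCs of C57BL/6 mice, and they were left untreated, treated with TGF-β1 at 5 ng/mL, or treated with TGF-β1 at the same dose together with supernatant of monocytic (M-MDSC) or granulocytic (G-MDSC) cells. The MDSCs were induced from C57BL/6 bone marrow and sorted before their medium was collected, and the study's text gives 24 h for the same treatments in its other assays. No group received a supernatant without TGF-β1, so the supernatants were seen only in its presence. No group received TGF-β1 with MDSC medium that had held no cells. An effect of that medium therefore cannot be told apart from one of MDSC products. The labels do not say that the libraries of a group came from separate cultures, so the p-values measure only the spread between these libraries.

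Library totals ran from 73977669 to 84565450 gene counts. Of 8 MSC markers, 6 in untreated cells and 7 in each other group had a mean of at least 1 FPKM, with a summed level of 581 to 598 FPKM in untreated, 500.2 to 513 in TGF-β1, 555 to 586 in TGF-β1/M-MDSC supernatant and 533 to 559 in TGF-β1/G-MDSC supernatant libraries. Below 1 FPKM were Eng in every group, at means of 0.683 to 0.891, and Nt5e in untreated cells, at a mean of 0.407. Itgb1 had means of 254 to 385 FPKM over the groups. Of the 7 MSC markers tested 4 rose and 3 fell with TGF-β1 at an adjusted p under 0.05 in edgeR, where 16.1% of all genes tested rose and 17.9% fell. Ly6a, which encodes Sca-1, had means of 245 FPKM in untreated, 16.2 in TGF-β1, 92.5 in TGF-β1/M-MDSC supernatant and 66.9 in TGF-β1/G-MDSC supernatant cells, and Pdgfra had 13.96 FPKM in untreated and 4.95 in TGF-β1 cells. Of the pair of genes that MSCs should lack, Kit had no count in untreated and TGF-β1 libraries, 4 in each M-MDSC supernatant library and 0 to 10 in those with G-MDSC supernatant, and Pecam1 had 40 to 120 counts over all libraries, at group means of 0.0838 to 0.173 FPKM. The 12 myeloid markers summed to 6.20 to 7.10 FPKM in untreated, 2.27 to 3.18 in TGF-β1, 4.32 to 6.80 in TGF-β1/M-MDSC supernatant and 5.63 to 8.47 in TGF-β1/G-MDSC supernatant libraries, with Mpo and Elane at 0 throughout. In untreated cells that sum was mainly Cd68, Ly6g and Ly6c2, whereas Lyz2 had means of 0.115 and 0.0573 FPKM in untreated and TGF-β1 cells and of 1.54 and 1.87 with M-MDSC and G-MDSC supernatant. S100a9 had no count in untreated and TGF-β1 libraries, 12 to 43 counts with M-MDSC supernatant and 160 in 1 of the 3 libraries with G-MDSC supernatant. The 10 kidney tubule markers summed to 0.361 to 0.502 FPKM in untreated and 0.515 to 0.593 in TGF-β1 libraries, but to 18.8, 17.98 and 85.9 in TGF-β1/M-MDSC supernatant and 52.2 to 64.6 in TGF-β1/G-MDSC supernatant libraries, although the cells were labelled as bone marrow MSCs. Kap was the largest part of the latter sums, at means of 30.5 FPKM with M-MDSC and 45.2 with G-MDSC supernatant. Cubn stayed at means of 0.386 to 0.454 FPKM over the 4 groups. The third M-MDSC supernatant library had the highest sum, and without it 2 of the 10 genes were lower than with TGF-β1 alone. These were Lox, by a log2 fold change of -0.26 (edgeR adjusted p = 0.00638), and Loxl2, by -0.56 (edgeR adjusted p = 0.00117), and 0 passed between the supernatants. The remaining supernatant libraries also carried kidney transcripts, so leaving 1 out cannot show whether these results depend on them. The kidney sum and Lyz2 were higher in both supernatant groups than in the other groups. S100a9 was higher with M-MDSC supernatant, but in only 1 of the 3 libraries with G-MDSC supernatant. The part of these transcripts in the differences reported for the supernatant groups was not tested. In bulk RNA, fewer cells of a type and less RNA per cell cannot be told apart.

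Untreated MSCs already carried both an abundant chaperone and an abundant lysyl oxidase transcript. In untreated cells Lox was the highest of the 10 genes, at 252 ± 4.27 FPKM (SD, n = 3), above 98.4% of the genes tested, and Serpinh1 followed at 206 ± 6.73 FPKM. The next level was that of P4ha1 at 37.4 ± 0.157 FPKM, and P4ha3 stood last at 6.02 ± 0.256 FPKM, above 47.9% of the genes tested. Below P4ha1 came Loxl1, Loxl3, Plod1, Loxl2, Plod2 and P4ha2, from 18.4 down to 7.94 FPKM, and of the 9 neighbouring pairs in this order Plod2 and P4ha2 were the pair whose libraries overlapped. Lox, Serpinh1, P4ha1 and Loxl1 kept ranks 1 to 4 in all 4 groups. Loxl2 moved from rank 7 in untreated to rank 5 in TGF-β1 cells, where its libraries overlapped those of Loxl1. Within a group the coefficient of variation between libraries ran from 0.0870% to 9.42% over the 10 genes, and each gene rested on 1568 counts or more in every library.

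**Figure D1:**
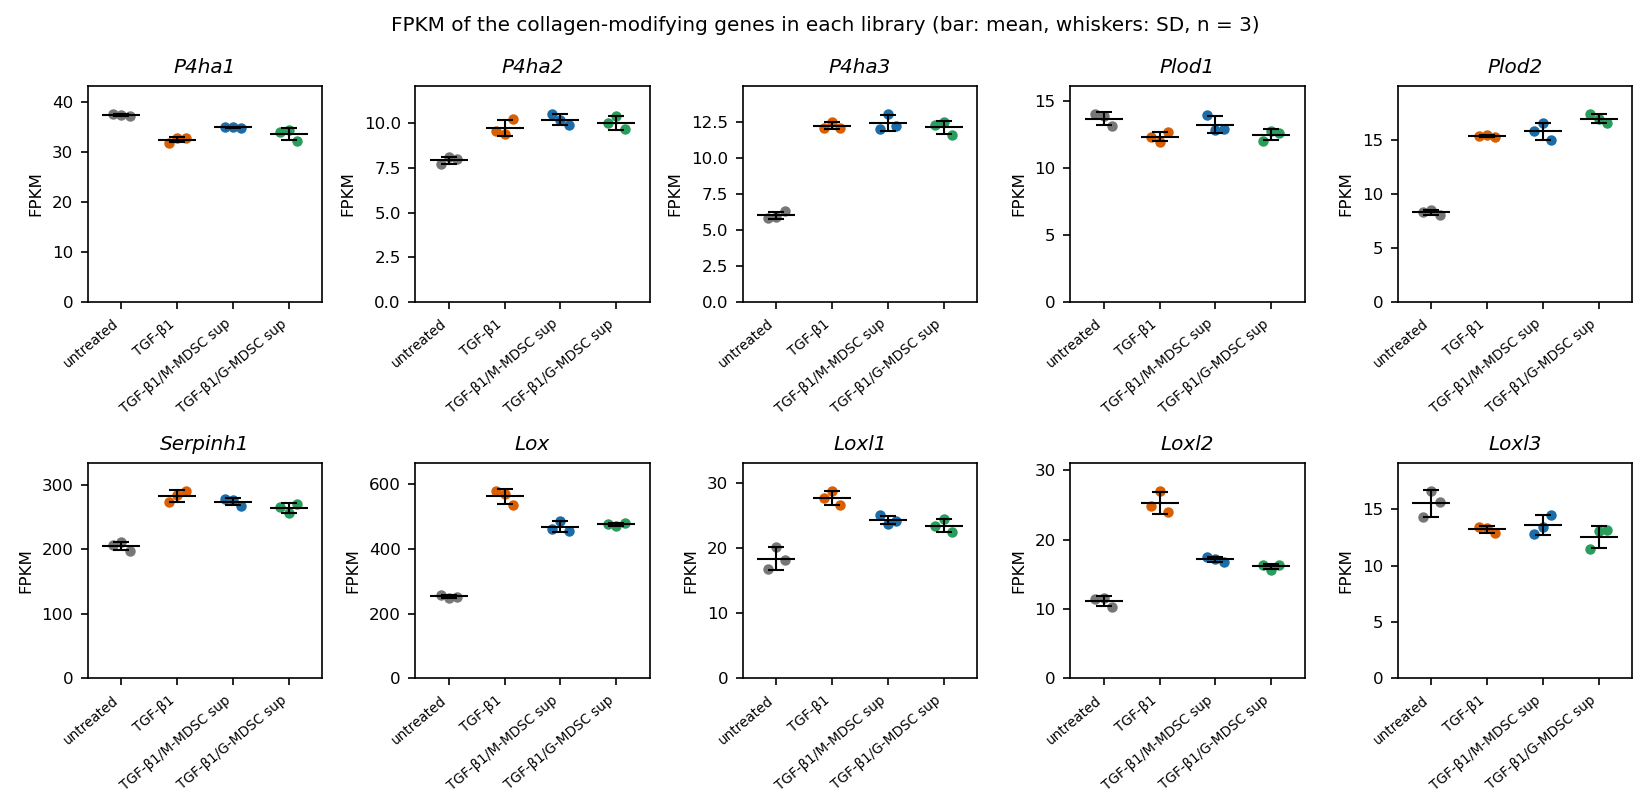
FPKM of each of the 10 genes (vertical axes, each starting at 0) in the 12 libraries, grouped along the horizontal axis by treatment, with the supernatant groups abbreviated as sup. Points are libraries, bars means and whiskers SDs (n = 3). The 3 TGF-β1 libraries of Lox sit between 533 and 578 FPKM, above the untreated libraries at 248 to 257, with both supernatant groups in between.

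The comparison of TGF-β1 with untreated cells asked which of these genes the cytokine moved by itself. With TGF-β1, 7 of the 10 genes rose (P4ha2, P4ha3, Plod2, Serpinh1, Lox, Loxl1 and Loxl2), 1 fell (P4ha1) and 2 did not pass (Plod1 and Loxl3), at an adjusted p under 0.05 in edgeR's quasi-likelihood test with Benjamini-Hochberg adjustment over all genes tested. Of all 12016 genes, 16.1% rose and 17.9% fell in the same comparison. The median log2 fold change was 0.58 over the 10 genes and 0.00048 over all genes tested. The study's own rule asks for a fold of over 2, or of under 0.5, and an unadjusted p under 0.05. By it, 3 of the 10 genes passed (P4ha3, Lox and Loxl2), against 6.74% of all genes.

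Among the prolyl 4-hydroxylase alpha subunits the most abundant fell while the other 2 rose. P4ha1, which encodes the alpha subunit most widely expressed in tissues, was at 37.6, 37.4 and 37.3 FPKM in untreated and at 31.9, 32.8 and 32.9 FPKM in TGF-β1 libraries. All 3 TGF-β1 libraries were below all untreated ones, and the log2 fold change was -0.14 ± 0.033 (SE), a fold of 0.904 (edgeR adjusted p = 0.00549). P4ha2 was at 7.73, 8.10 and 8.00 FPKM untreated and at 9.57, 9.39 and 10.3 FPKM with TGF-β1, a log2 fold change of 0.35 ± 0.048 without overlap (edgeR adjusted p = 0.000198). P4ha3, the third alpha subunit, was the lowest of the 10 genes in untreated cells at 5.85, 5.89 and 6.31 FPKM and reached 12.1, 12.5 and 12.1 FPKM. The groups of P4ha3 were far apart compared with their spread, with a log2 fold change of 1.08 ± 0.053, a 2.11-fold rise (edgeR adjusted p = 8.34e-08).

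The makeup of the alpha subunit transcripts shifted accordingly. The 3 subunits together came to 51.4 ± 0.230 FPKM in untreated and 54.5 ± 0.844 FPKM in TGF-β1 cells (SD, n = 3). P4ha1 made up 72.8% ± 0.597 of that sum in untreated and 59.7% ± 0.240 in TGF-β1 cells, and P4ha3 made up 11.7% ± 0.446 and 22.4% ± 0.496. P4ha2 went from 15.4% ± 0.339 to 17.9% ± 0.700. No library of either group overlapped the other in any of these 3 shares, on which no test was run. P4hb, the partner subunit and itself no member of the 10, rose with the cytokine, standing at 333 ± 4.62 FPKM before and 409 ± 2.97 FPKM after it, with a log2 fold change of 0.36 (edgeR adjusted p = 1.43e-06).

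**Figure D2:**
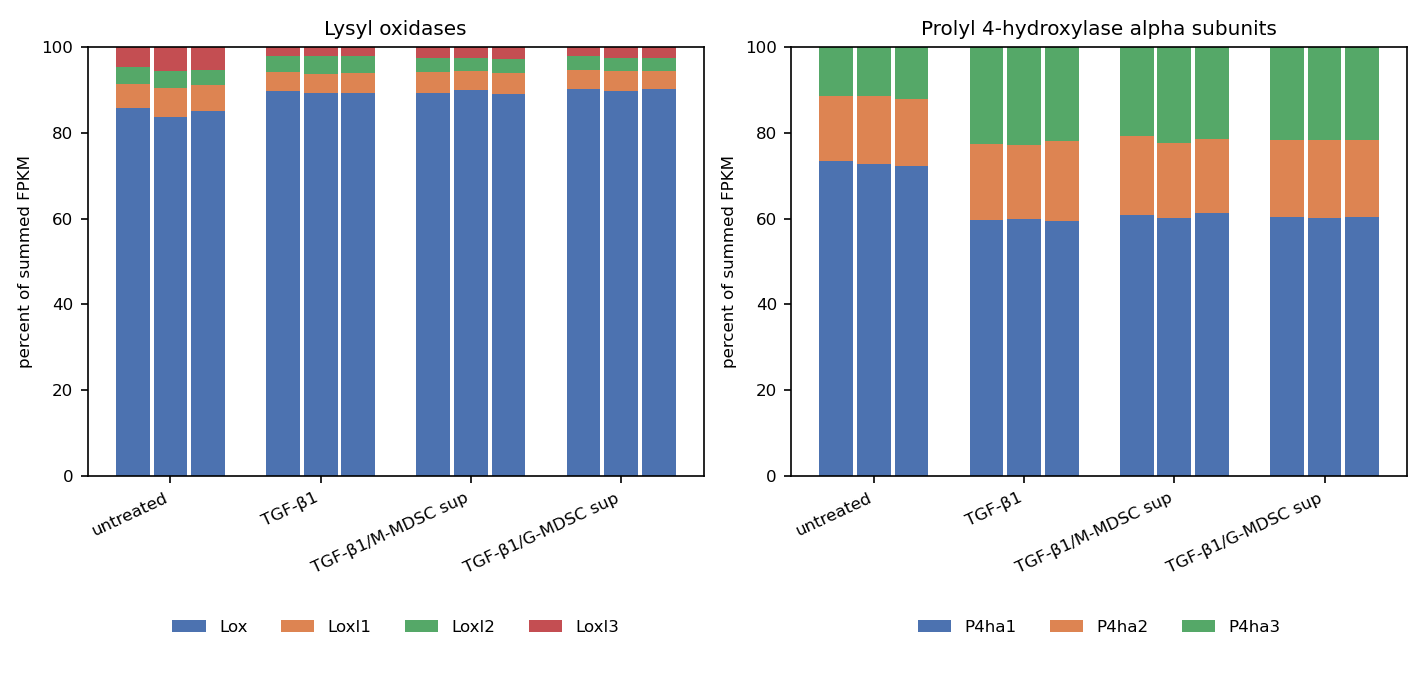
Percent of the summed FPKM of the lysyl oxidases (left) and of the prolyl 4-hydroxylase alpha subunits (right) that each gene contributed, one stacked bar per library, 3 bars per group. Lox makes up 83.7% to 90.3% of the left-hand bars, and the P4ha1 part of the right-hand bars is 72.3% to 73.5% in untreated libraries and 59.5% to 61.3% in the other 9.

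Promoter sequence from RefSeq (assembly GRCm38.p6) was at hand for 5 of the 10 genes (P4ha1, P4ha2, P4ha3, Plod1 and Serpinh1). The windows shown are those of the alpha subunits with the steepest rise and with the fall, and of the chaperone, each covering the 250 bases before the transcript start, 5′ to 3′ on the gene's strand. Capitals mark matches on either strand to 3 short motifs, the SMAD-binding core CAGAC, the hypoxia response core ACGTG and the GC box GGGCGG. P4ha3 lies on chromosome 7 (window chr7:100285270-100285519, plus strand), P4ha1 on chromosome 10 (window chr10:59323046-59323295, plus strand) and Serpinh1 on chromosome 7 (window chr7:99353240-99353489, minus strand).
P4ha3: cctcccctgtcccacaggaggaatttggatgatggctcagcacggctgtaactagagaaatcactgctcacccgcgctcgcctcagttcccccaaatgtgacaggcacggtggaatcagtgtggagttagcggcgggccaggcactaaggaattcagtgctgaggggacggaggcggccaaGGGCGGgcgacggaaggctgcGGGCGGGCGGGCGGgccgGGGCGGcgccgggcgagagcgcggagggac
P4ha1: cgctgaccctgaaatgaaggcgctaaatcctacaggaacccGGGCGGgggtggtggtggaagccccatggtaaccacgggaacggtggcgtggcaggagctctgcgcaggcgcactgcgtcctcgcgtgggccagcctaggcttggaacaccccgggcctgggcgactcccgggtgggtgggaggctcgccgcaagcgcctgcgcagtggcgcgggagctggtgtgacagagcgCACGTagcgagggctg
Serpinh1: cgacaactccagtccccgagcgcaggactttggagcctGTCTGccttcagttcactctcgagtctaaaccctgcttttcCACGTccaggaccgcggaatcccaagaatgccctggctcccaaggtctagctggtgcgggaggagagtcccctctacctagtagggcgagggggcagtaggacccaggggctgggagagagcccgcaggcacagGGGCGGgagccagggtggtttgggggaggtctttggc

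The P4ha3 window held 5 GC boxes, 3 of them overlapping in a row, and no match to CAGAC or ACGTG. The P4ha1 window held 1 ACGTG and 1 GC box, and the Serpinh1 window held 1 match to each of the 3 motifs. Of the windows not printed, P4ha2 held 1 ACGTG and 2 GC boxes and Plod1 held 1 CAGAC and 2 GC boxes. Among the 32851 windows of the same length in the table, 42.2% held CAGAC, 16.6% held ACGTG and 32.7% held GGGCGG. The CCAAT box, searched as CCAAT, and the heat shock element core, searched as GAANNTTC, were held by 33.9% and 6.69% of all windows and by 0 of the 5. The 5 windows were 61.6% to 70.0% G and C, against a median of 52.4% over all windows. A match is a description of letters and not of a bound site.

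Of the lysyl hydroxylases, Plod2 rose and Plod1 did not pass. Plod1, whose product hydroxylates helical lysines, was at 14.0, 13.9 and 13.1 FPKM in untreated and 12.3, 11.97 and 12.6 FPKM in TGF-β1 libraries. The groups did not overlap, but the log2 fold change of -0.09 (95% interval -0.20 to 0.01) did not pass (edgeR adjusted p = 0.161). With library totals as the only scaling the adjusted p of Plod1 was 0.0271, and with limma on log2(FPKM + 1) it was 0.0331. Plod2, whose product hydroxylates the telopeptide lysines that give the pyridinoline crosslinks of scar collagen, was at 8.30, 8.51 and 8.09 FPKM untreated and 15.4, 15.5 and 15.3 FPKM with TGF-β1. Its libraries varied little within either group (coefficients of variation of 2.56% and 0.645%), and its log2 fold change was 0.95 ± 0.044, a 1.93-fold rise (edgeR adjusted p = 5.46e-08). The ratio of Plod2 to Plod1 in FPKM was 0.608 ± 0.0131 in untreated and 1.251 ± 0.0423 in TGF-β1 cells, so the order of the pair was opposite in these groups. Plod3, the family's remaining gene, stood at 47.3 ± 1.66 and 48.4 ± 1.47 FPKM (edgeR adjusted p = 0.140).

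Serpinh1, the chaperone gene, was at 208, 211 and 198 FPKM in untreated and at 273, 285 and 291 FPKM in TGF-β1 libraries. The groups did not overlap, and the log2 fold change was 0.52 ± 0.039, a fold of 1.43 (edgeR adjusted p = 2.32e-06).

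Of the 4 lysyl oxidases, 3 rose with TGF-β1. Lox, the founding member of the family, was at 257, 248 and 252 FPKM in untreated and at 578, 569 and 533 FPKM in TGF-β1 libraries. The log2 fold change was 1.21 ± 0.038, a 2.31-fold rise (edgeR adjusted p = 3.44e-09), and it brought Lox above 99.4% of the genes tested. Loxl2, whose product crosslinks collagen IV among other substrates, was at 11.5, 11.6 and 10.4 FPKM untreated and at 24.8, 27.0 and 23.96 FPKM with TGF-β1. It had the highest log2 fold change of the 10 genes, 1.24 ± 0.059, a 2.36-fold rise (edgeR adjusted p = 7.55e-08), with an interval from 1.11 to 1.37 that overlapped that of Lox. Loxl1, whose product is known for elastic fibre upkeep, went from 16.8, 20.2 and 18.2 FPKM to 27.7, 28.8 and 26.6 FPKM, without overlap and with a log2 fold change of 0.65 ± 0.067 (edgeR adjusted p = 2.51e-05).

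Loxl3 did not share that rise. It was at 14.3, 16.6 and 15.6 FPKM in untreated and at 13.4, 13.3 and 12.9 FPKM in TGF-β1 libraries, where all 3 were lower. The log2 fold change of -0.18 (95% interval -0.34 to -0.01) did not pass (edgeR adjusted p = 0.0920), although it did without the first untreated library (adjusted p = 0.0293) with library totals as the only scaling (adjusted p = 0.0281) and with limma on log2(FPKM + 1) (adjusted p = 0.0323). Loxl4, the family's remaining gene, fell, standing at 27.2 ± 0.456 FPKM in untreated and 17.0 ± 0.326 FPKM in TGF-β1 cells, with a log2 fold change of -0.62 (edgeR adjusted p = 4.21e-05). The summed FPKM of Lox, Loxl1, Loxl2 and Loxl3 was 297 ± 1.66 in untreated and 626 ± 25.7 in TGF-β1 cells, and Lox made up 84.9% ± 1.08 and 89.4% ± 0.306 of it, whereas Loxl3 went from 5.21% ± 0.419 to 2.11% ± 0.0409.

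The comparisons of each supernatant group with TGF-β1 alone asked what the supernatants added to the cytokine. Both used the same 3 TGF-β1 libraries, which were also the treated libraries of the comparison above, so their values are set side by side and are not independent of each other. With M-MDSC supernatant, 2 of the 10 genes were lower (Lox and Loxl2), none was higher and 8 did not pass, where 1.95% of all genes tested were lower and 2.83% higher. With G-MDSC supernatant, 3 were lower (Lox, Loxl1 and Loxl2), none was higher and 7 did not pass, where 2.46% of all genes were lower and 3.1% higher. In both counts the lower genes were lysyl oxidases, and 0 of the 5 hydroxylase genes passed in edgeR's quasi-likelihood test, in DESeq2 or in limma, with 1 hydroxylase at an unadjusted p under 0.05 in each comparison, as were 16.7% and 17.2% of all genes. By the study's rule 0 of the 10 genes passed with either supernatant, against 2.18% of all genes with M-MDSC and 2.17% with G-MDSC supernatant. The median log2 fold change of the 10 genes was 0.01 with M-MDSC and -0.07 with G-MDSC supernatant, and that of all genes was -0.01 in both.

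**Figure D3:**
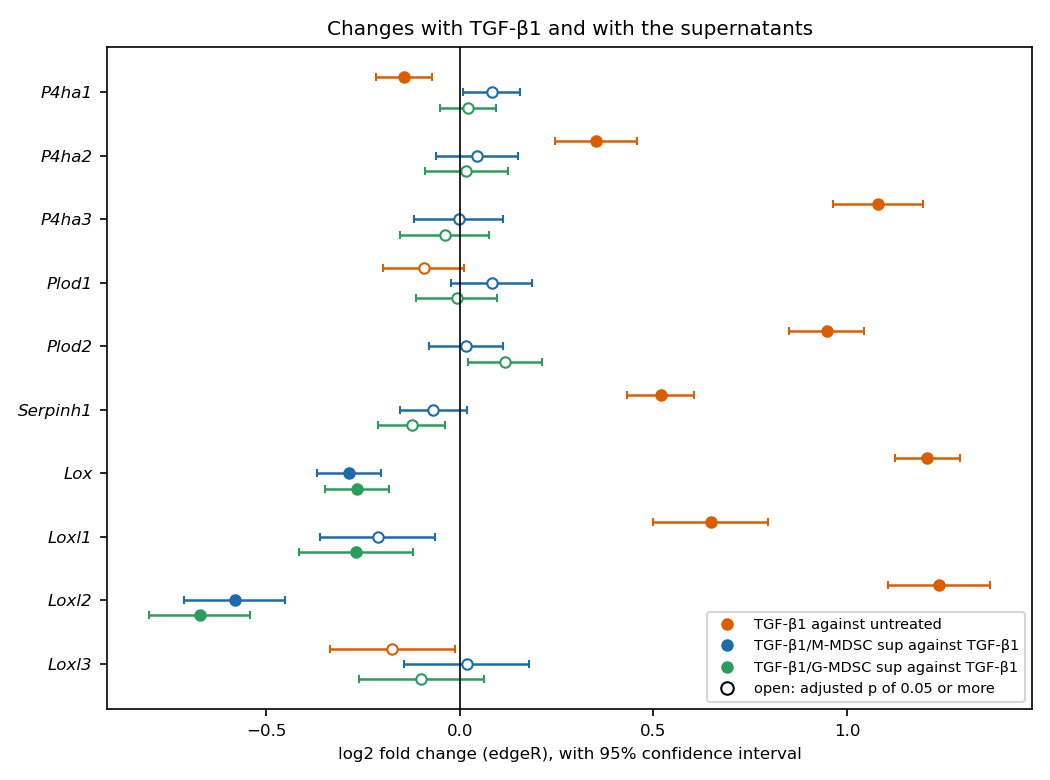
Log2 fold changes of the 10 genes from edgeR (horizontal axis) with 95% confidence intervals, for TGF-β1 against untreated and for each supernatant group against TGF-β1. Filled points passed at an adjusted p under 0.05 and open points did not. Loxl2 lies at 1.24 with TGF-β1 and at -0.58 and -0.67 with the supernatants, while the supernatant points of P4ha3 and Plod2 lie between -0.04 and 0.12.

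Loxl2 was the member with the furthest shift under both supernatants. From 24.8, 27.0 and 23.96 FPKM with TGF-β1 alone it stood at 17.5, 17.2 and 16.7 FPKM with M-MDSC supernatant and at 16.4, 15.7 and 16.4 FPKM with G-MDSC supernatant. All 6 supernatant libraries were below all TGF-β1 libraries and above all untreated ones, which were at 10.4 to 11.6 FPKM. The log2 fold change was -0.58 ± 0.059 with M-MDSC (edgeR adjusted p = 0.000139) and -0.67 ± 0.059 with G-MDSC supernatant (edgeR adjusted p = 4.32e-05), so that its level fell by 33.2% with the first and fell by 37.2% with the second. Of all genes tested, 1.96% lay below the log2 fold change of Loxl2 in the first of these comparisons and 1.42% in the second.

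Lox moved in the same direction by less. It stood at 461, 485 and 453 FPKM with M-MDSC and at 474, 468 and 480 FPKM with G-MDSC supernatant, against 533 to 578 FPKM with TGF-β1 alone. No supernatant library reached the lowest TGF-β1 library, and the log2 fold changes were -0.29 ± 0.037 (edgeR adjusted p = 0.000989) and -0.27 ± 0.037 (edgeR adjusted p = 0.00163). Since Lox made up most of the lysyl oxidase transcripts, the summed FPKM of the 4 genes was 521 ± 16.1 with M-MDSC and 526 ± 5.16 with G-MDSC supernatant, against 626 ± 25.7 with TGF-β1 alone.

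Loxl1 was at the edge of the threshold. It stood at 25.0, 23.7 and 24.2 FPKM with M-MDSC and at 23.4, 24.4 and 22.4 FPKM with G-MDSC supernatant, and all 6 libraries were below the TGF-β1 libraries at 26.6 to 28.8 FPKM. The log2 fold change was -0.21 ± 0.067 with M-MDSC supernatant, which did not pass (edgeR adjusted p = 0.125), and -0.27 ± 0.067 with G-MDSC supernatant, which did (edgeR adjusted p = 0.0420). The second call did not hold with any 1 of the 6 libraries left out (adjusted p of 0.0694 to 0.155) nor with a replicate block (adjusted p = 0.0509). Loxl3 stood at 13.6 ± 0.862 FPKM with M-MDSC and 12.5 ± 0.955 FPKM with G-MDSC supernatant, against 13.2 ± 0.295 with TGF-β1, and passed in neither comparison (edgeR adjusted p = 0.945 and 0.573).

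The hydroxylases stood near the levels they had with TGF-β1 alone. P4ha3 was at 11.96, 13.02 and 12.2 FPKM with M-MDSC and at 12.3, 12.5 and 11.6 FPKM with G-MDSC supernatant, with 95% intervals of the log2 fold change from -0.12 to 0.11 and from -0.15 to 0.08. Plod2 was at 15.8, 16.5 and 15.0 FPKM with M-MDSC supernatant (interval -0.08 to 0.11) and at 17.4, 16.9 and 16.6 FPKM with G-MDSC supernatant. All 3 of the latter libraries were above the TGF-β1 libraries, but the log2 fold change of 0.12 (interval 0.02 to 0.21) did not pass (edgeR adjusted p = 0.185). P4ha1 was at 35.0, 35.0 and 34.9 FPKM with M-MDSC supernatant, between the untreated and the TGF-β1 libraries, with a log2 fold change of 0.08 that did not pass (edgeR adjusted p = 0.230), and with G-MDSC supernatant its log2 fold change was 0.02 (edgeR adjusted p = 0.831). P4ha2 and Plod1 had adjusted p-values of 0.720 and 0.432 with M-MDSC and of 0.919 and 0.965 with G-MDSC supernatant in the same edgeR test.

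Serpinh1 stood at 278, 276 and 267 FPKM with M-MDSC and at 266, 256 and 271 FPKM with G-MDSC supernatant, against 273 to 291 FPKM with TGF-β1 alone. The G-MDSC libraries were all below the TGF-β1 ones, yet the log2 fold change of -0.12 (95% interval -0.21 to -0.04) did not pass (edgeR adjusted p = 0.111), nor did that of -0.07 with M-MDSC supernatant (edgeR adjusted p = 0.422). The ratio of Loxl2 to P4ha3 in FPKM, 2.06 ± 0.0926 with TGF-β1 alone, was 1.39 ± 0.0755 with M-MDSC and 1.33 ± 0.0775 with G-MDSC supernatant, below the 1.86 ± 0.188 of untreated cells. That ratio was chosen after the values of both genes were seen, and no test was run on it.

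The comparison of the supernatants asked whether the MDSC subtypes differed in what they did to these genes. With M-MDSC against G-MDSC supernatant, 0 of the 10 genes passed in edgeR's quasi-likelihood test, in DESeq2 or in limma, and 1 (Plod2) was at an unadjusted p under 0.05, as were 6.33% of all genes. Of all genes tested 0.0999% were higher and 0.025% lower with M-MDSC supernatant, and 0.549% passed the study's rule, which 0 of the 10 genes did. Plod2 had a log2 fold change of -0.10 (95% interval -0.197 to -0.005), an unadjusted p of 0.0411 and an adjusted p of 0.765 in edgeR. For Lox the interval was -0.10 to 0.06 and for Loxl2 it was -0.04 to 0.22, so a difference of Loxl2 of up to 1.17-fold between the supernatants lay within its interval. Loxl3 had the widest interval, -0.04 to 0.28, and that of Loxl1 was -0.09 to 0.20. The interval was -0.03 to 0.14 for Serpinh1, -0.01 to 0.13 for P4ha1, -0.08 to 0.13 for P4ha2, -0.08 to 0.15 for P4ha3 and -0.01 to 0.19 for Plod1.

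**Figure D4:**
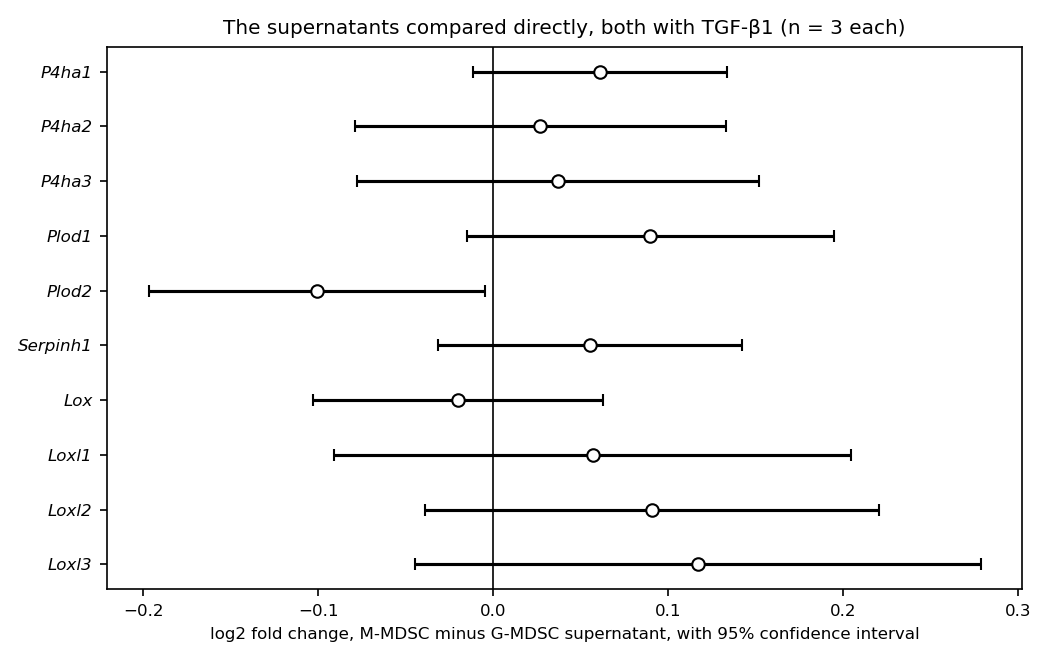
Log2 fold changes of the 10 genes of cells given M-MDSC supernatant against cells given G-MDSC supernatant, both with TGF-β1 (horizontal axis, edgeR, n = 3 each), with 95% confidence intervals. Positive values are higher with M-MDSC supernatant. The interval of every gene but Plod2 crosses 0, and no gene passed at an adjusted p under 0.05.

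Compared with untreated cells, which the comparisons of this paragraph and of TGF-β1 alone share, 7 of the 10 genes were higher with either supernatant. With M-MDSC supernatant 7 genes were higher (P4ha2, P4ha3, Plod2, Serpinh1, Lox, Loxl1 and Loxl2) and 0 lower, a count that was 0 in DESeq2 and 1 in limma (P4ha1), with 7 genes in all at an unadjusted p under 0.05 (43.4% of all genes), where at an adjusted p under 0.05 16.4% of all genes were higher and 18.9% lower in edgeR's test. With G-MDSC supernatant the 7 higher genes were those just named and 2 were lower (P4ha1 and Loxl3), where 16.4% of all genes were higher and 18.4% lower. The study's rule was passed by 1 gene with M-MDSC (P4ha3) and by 2 with G-MDSC supernatant (P4ha3 and Plod2), against 6.98% and 6.8% of all genes. Lox was 1.89-fold and 1.92-fold above untreated and Loxl2 1.58-fold and 1.48-fold, with M-MDSC and G-MDSC supernatant, while P4ha3 was 2.11-fold and 2.06-fold above untreated. The genes that did not pass were P4ha1, Plod1 and Loxl3 with M-MDSC supernatant (edgeR adjusted p = 0.168, 0.884 and 0.124) and Plod1 with G-MDSC supernatant (edgeR adjusted p = 0.128).

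The lower pair differed from untreated by little. P4ha1 stood at 34.1, 34.4 and 32.3 FPKM with G-MDSC supernatant, below all untreated libraries, with a log2 fold change of -0.12 ± 0.033 (edgeR adjusted p = 0.0130). Loxl3 stood at 11.4, 13.1 and 13.1 FPKM, also below all untreated libraries, with a log2 fold change of -0.27 ± 0.073 (edgeR adjusted p = 0.0135). Without the second untreated library the adjusted p was 0.0587 for P4ha1 and 0.0600 for Loxl3, and without the first G-MDSC supernatant library that of Loxl3 was 0.0524. The call of P4ha1 was also lost with no filter on low values (adjusted p = 0.0878) and with only the 2 groups in the fit (adjusted p = 0.0840).

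Other genes of the pathway were counted from fixed lists, beside which stand the shares of all genes tested, 16.1% higher and 17.9% lower with TGF-β1, 2.83% higher and 1.95% lower with M-MDSC supernatant against TGF-β1, and 3.1% higher and 2.46% lower with G-MDSC supernatant. Of 30 other collagen processing genes 25 were tested, and 16 rose and 5 fell with TGF-β1, while 5 were lower with M-MDSC and 4 with G-MDSC supernatant than with TGF-β1 alone and the other 20 and 21 did not pass. P4hb was among the 4, at 384 ± 6.43 FPKM with G-MDSC supernatant (log2 fold change -0.12, edgeR adjusted p = 0.0201), and at 395 ± 3.19 FPKM with M-MDSC supernatant it did not pass (edgeR adjusted p = 0.163). Of 12 genes for fibrillar collagen chains and elastin, the substrates of these enzymes, 8 were tested, all of them collagen chains, and all 8 rose with TGF-β1. The elastin gene Eln did not pass the filter on low values and was not tested. With M-MDSC supernatant 3 of those 8 were lower than with TGF-β1 alone and with G-MDSC supernatant 5 were, and the other 5 and 3 did not pass. Of 15 genes of the hypoxia response, which is known to raise P4ha1, Plod2 and Lox in other settings, 11 were tested and 5 rose and 4 fell with TGF-β1, and 3 were higher and 1 lower with each supernatant. Of 10 TGF-β1 response genes 9 rose with the cytokine, and 5 were lower with M-MDSC and 6 with G-MDSC supernatant.

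The genes whose pattern over the 12 libraries was most like each group of the 10 were found by Pearson's r with the mean of the standardised log2(FPKM + 1) values of that group. For the lysyl oxidases these were Fads1 (r = 0.96), Csrp1 (0.95) and Pkp2 (0.95), and for Serpinh1 they were Col5a1, Mn1 and Myo7a (0.98 each). For the hydroxylases, whose members moved in opposite directions, they were Mrpl47 (0.95), Tspo (0.95) and Thoc5 (0.94). Among the 10 genes the closest pair was P4ha3 and Plod2 (r = 0.98) and the most opposed was P4ha1 and Lox (r = -0.91). These correlations describe 12 libraries that fall into 4 groups and share their depth within a library.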

How the data were processed

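Polyadenylated RNA of 12 libraries, 3 for each of 4 groups, had been sequenced in pairs. Per the labels and the study's methods, the authors trimmed reads with cutadapt 1.9 and fastp, aligned them to GRCm38 with HISAT2 2.0.4 and assembled transcripts with StringTie 1.3.4d. The authors deposited gene counts, unnormalized, and FPKM, scaled to gene length and library size. The counting tool is not given in the sources used here.

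Counts were scaled by TMM (factors 0.978 to 1.03) and tested with edgeR 4.0.16 (R 4.3.3, quasi-likelihood, two-sided) in 1 fit of 4 groups over 12016 genes, those reaching an FPKM of 1 in 3 or more libraries, with Benjamini-Hochberg adjustment. Levels, shares and ratios used FPKM. Alternatives used DESeq2 1.42.0, limma 3.58.1 on log2(FPKM + 1) and log2(FPKM + 0.1), other scalings, filters and dispersion settings, counts divided by 4 and rounded, a replicate block and left-out libraries. The fitting step was tested on simulated data. Of counts from 1 to 20, 40.5% were multiples of 4, for a reason not given in the sources used here, and of counts from 1001 up, where all 10 genes lie, 25.2% were. Libraries of a group differed by 61.8 to 85.6 times the counting variance, or by 15.5 to 21.4 times after division by 4, and none was counted as a repeat of another.

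All 10 genes were named in every comparison. The genes and lists were chosen with earlier results of these data known. Genes outside the 10 were counted from 4 lists (other collagen processing, fibrillar collagens and elastin, hypoxia response and TGF-β1 response genes) and from the MSC markers. Those given with values are P4hb, Plod3 and Loxl4, as partner and remaining family members, markers, and the 3 genes with the highest correlation to each group. Reads that near-identical copies share were not resolved here.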

Additional observations from a re-analysis of the deposited data

How the results depend on the processing

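Over 6 comparisons, 29 of the 60 tests of the 10 genes passed. Of these, 26 passed with the same sign in every alternative fit, 3 were lost in at least 1 and 0 reversed, and 5 that had not passed did so in at least 1. The 3 lost calls were Loxl1 with G-MDSC supernatant against TGF-β1 (lost in 14 of 17 alternative fits, kept with DESeq2, robust dispersion and counts divided by 4) and P4ha1 and Loxl3 with G-MDSC supernatant against untreated. The cause was not tested. Under the study's rule of fold and unadjusted p, the number of genes changed was 3 with TGF-β1, 1 with M-MDSC and 2 with G-MDSC supernatant against untreated, and 0 with either supernatant against TGF-β1, since that rule asks for a fold of 2. With a replicate block the counts were 8 with TGF-β1, 7 with M-MDSC and 9 with G-MDSC supernatant against untreated, and 2 with either supernatant against TGF-β1. The same-numbered libraries did not deviate together (mean r = 0.0017 over 18 pairs). The labels do not say whether the numbers mark paired cultures, and these correlations cannot show it. With 1 library left out the counts ran from 8 to 9 with TGF-β1, 7 to 8 with M-MDSC and 7 to 9 with G-MDSC supernatant against untreated, and were 2 with either supernatant against TGF-β1 in every case. Of 28 shares, 25 moved by more than 1 SD when counts replaced FPKM, since counts keep gene length. At this depth the 95% intervals were at most 0.32 wide on the log2 scale.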
